A study of Mus musculus with 18 samples.

Results

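The IL-6, IL-12 and IL-10 cytokine families were followed through 10 genes chosen by name: Il6, Lif and Osm of the IL-6 family, Il12a, Il12b, Il23a, Il27 and Ebi3 of the IL-12 family, and Il10 and Il19 of the IL-10 family. All 10 were among the 22852 genes listed in each of the 18 count tables. The libraries came from bone marrow-derived macrophages (BMDMs) of female C57BL/6 mice, grown in medium conditioned by L929 cells, with 3 biological replicates in each of 6 groups. Unstimulated cells received no LPS. LPS-primed cells received Salmonella LPS at 100 ng/ml for 24 h. LPS-tolerant cells were primed in the same way and then re-exposed to LPS at 10 ng/ml for 3 h in fresh medium. Both primed and tolerant cells were also prepared after pretreatment with 25 µM carboplatin, a platinum drug that forms adducts with DNA, for 1 h before priming, against vehicle in the cells without the drug. The LPS10 control had never been primed and received LPS at 10 ng/ml only, for a time that the sources used here do not state. Which animal each replicate came from is not stated either, so p-values measure the spread between these cultures.

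Each library held 6869667 to 14708099 read pairs counted in genes (median 8986463). Macrophage markers such as Adgre1, Csf1r and Lyz2 were detected in every group, 8 of 8, with a summed level of 13959 to 17952 CPM (read pairs scaled to a common library size) in the LPS10 control and 18810 to 30887 CPM in the other groups. Markers of other cells moved between the groups. B cell markers summed to 33.2 to 200 CPM in unstimulated cells, nearly all from Ighm with Ms4a1 and Pax5 at 0, to 7.24 to 27.2 CPM in the LPS10 control, and to at most 1.34 CPM in the primed and tolerant groups. Neutrophil markers, mostly S100a8 with Ly6g, Retnlg and Mpo at 0 in every group, summed to 0.935 to 1.65 CPM in unstimulated cells, 4.01 to 12.1 CPM in the LPS10 control and 9.05 to 58.4 CPM elsewhere, and fibroblast markers, mostly Dcn, stayed at or below 7.62 CPM. T and NK cell markers reached at most 2.57 CPM and dendritic cell markers at most 2.18 CPM, and mast cell markers were at 0. The part of these cells in the results below was not tested, and in bulk RNA fewer cells of a type and less RNA per cell cannot be told apart.

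These cytokines signal through paired receptor chains that activate JAK kinases and STAT factors. IL-6, LIF and oncostatin M (Osm) all use the gp130 chain (Il6st). The IL-12 family consists of pairs of chains: p40 (Il12b) joins p35 (Il12a) to make IL-12 or p19 (Il23a) to make IL-23, and EBI3 joins p28 (Il27) to make IL-27. IL-10 limits the inflammatory output of macrophages through STAT3, and IL-19 is a relative of IL-10 that signals through the IL-20 receptor. In macrophages, LPS acts through TLR4 and NF-κB, and LPS tolerance is the state in which an earlier exposure dampens the response of many cytokine genes to the next one.

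Promoter sequence was at hand for 6 of the 10 genes in the RefSeq table (build GRCm38.p6), and none was found there for Il10, Il23a, Il27 and Osm. The 250 bases before the start site are shown, 5′ to 3′, for Il6, Il12b, Il19 and Ebi3, because these genes stand for the range of LPS responses described next: 3 that were at or near 0 in unstimulated cells and 1 that was read in every library. Capitals mark matches, on either strand, to letters that are typical of 6 kinds of binding site or of a TATA box (TATAAA). These were GGGA and TTCC 2 bases apart for NF-κB, TTGC and AA 2 bases apart for C/EBP, TGA and TCA 1 base apart for AP-1, TGAC directly followed by GTCA for the cyclic AMP response element (CRE), GAAA and GAAA 2 bases apart for the interferon-stimulated response element (ISRE), and TTCC and GGAA 1 base apart for STAT factors. The Il6 window is chr5:30012864-30013113 (+ strand), the Il12b window chr11:44399813-44400062 (+ strand), the Il19 window chr1:130940116-130940365 (- strand) and the Ebi3 window chr17:55952373-55952622 (+ strand).
Il6: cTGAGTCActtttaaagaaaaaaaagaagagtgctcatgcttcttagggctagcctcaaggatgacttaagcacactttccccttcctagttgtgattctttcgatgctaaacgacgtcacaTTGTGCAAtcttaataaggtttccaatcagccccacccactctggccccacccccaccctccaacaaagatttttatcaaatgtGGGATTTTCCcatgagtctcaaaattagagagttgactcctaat
Il12b: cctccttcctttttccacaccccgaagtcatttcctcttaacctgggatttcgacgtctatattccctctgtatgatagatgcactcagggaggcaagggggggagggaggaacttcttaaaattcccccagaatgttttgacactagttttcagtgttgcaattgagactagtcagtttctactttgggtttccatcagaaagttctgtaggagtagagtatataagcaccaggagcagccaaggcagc
Il19: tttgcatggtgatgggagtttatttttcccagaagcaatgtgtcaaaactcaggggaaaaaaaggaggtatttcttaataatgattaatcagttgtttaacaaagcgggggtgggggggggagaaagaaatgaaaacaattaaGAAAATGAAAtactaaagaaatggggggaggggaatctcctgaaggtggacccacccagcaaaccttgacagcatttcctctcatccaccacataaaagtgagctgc
Ebi3: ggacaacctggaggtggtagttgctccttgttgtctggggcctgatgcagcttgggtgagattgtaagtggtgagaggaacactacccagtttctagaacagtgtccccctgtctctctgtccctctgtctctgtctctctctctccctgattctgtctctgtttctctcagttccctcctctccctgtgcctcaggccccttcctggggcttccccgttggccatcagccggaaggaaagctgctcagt

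The Il6 window held the AP-1 letters at base -249, the C/EBP letters at -128 on the minus strand and the NF-κB letters at -44, where each position counts from the start site to the first base of the match. The Il19 window held the ISRE letters at -107, and the Il12b and Ebi3 windows held none of the 7 searched. Of 32851 promoter windows of the same 250 bases, 1.21% held the NF-κB letters, 9.56% the C/EBP letters, 6.75% the AP-1 letters, 1.55% the CRE, 2.98% the ISRE letters, 0.913% the STAT letters and 12.4% the TATA box. Of the windows not shown, that of Lif held the AP-1 letters at -228 and the 2 entries of Il12a held none. These matches describe letters only, and an empty window says nothing about any factor.

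A single LPS exposure of unprimed cells raised most of the tested members. In the LPS10 control against unstimulated cells, 7 of the 8 members with enough reads to test rose and none fell (edgeR quasi-likelihood test, adjusted p under 0.05), where 24.3% of all 11305 genes tested rose and 26.9% fell. Il12a and Lif did not reach the minimum count for testing. Il12b, Il23a and Il19 reached it only through the LPS10 control, so that being tested already required them to be high there; of the other 5 tested members 4 rose. The normalized counts of the groups did not overlap for any of the 8 tested members, those 3 included, against 55.7% of all genes. The median log2 fold change of the 8, again with those 3 included, was 4.64, with genes at the counting floor entered at their bound, against -0.09 over all genes. Normalized counts here are read pairs scaled to a common library size, and 3 read pairs per library were taken as the counting floor, so a fold against a group below it is given as a lower bound.

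**Figure D1:**
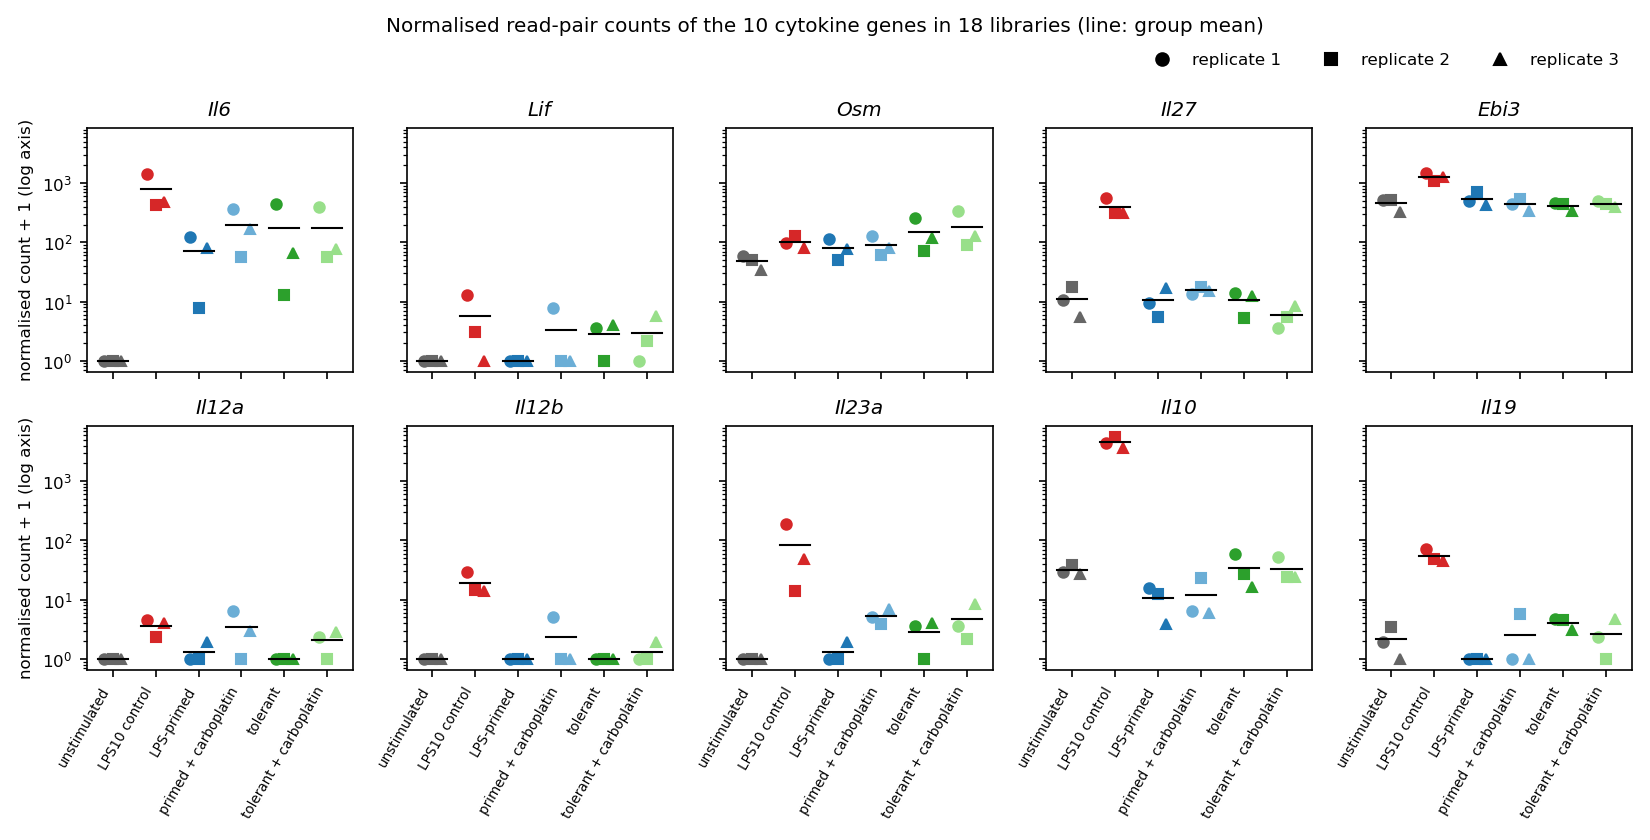
Normalized read counts plus 1 (log y axis) of the 10 cytokine genes in each of the 18 libraries, 1 panel per gene, with the 6 groups on the x axis, 1 marker shape per replicate and a horizontal line at the group mean. Il10, Il12b, Il23a, Il27, Ebi3 and Il19 are highest in the LPS10 control, whereas the points of Osm reach their highest values, 261 and 332, in replicate 1 of the tolerant groups.

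Il6, the acute-phase and fever cytokine (GRCm39 chr5:30218112-30224979, 5 exons), was not read in any unstimulated library. The LPS10 control held 1444, 428 and 478 normalized counts in replicates 1, 2 and 3 (783 ± 573, SD, n = 3). Every treated library lay above every unstimulated one, and replicate 1 of the control stood well above the other two. By the group mean Il6 was at least 292-fold higher in the LPS10 control, and at least 169-fold without its replicate 1 (edgeR adjusted p = 4.14e-04). A lncRNA gene, Gm42450, overlaps Il6 on the opposite strand, and reads of such partners cannot be told apart because the strand setting of the counting is not given in the sources used here. The same holds for the lncRNA genes Gm66274 at Il12a and Gm16712 at Ebi3 and for the protein-coding Apobr at Il27.

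Osm (chr11:4186420-4191026), a gp130 cytokine of haematopoietic cells, behaved differently from Il6. It was already read in unstimulated cells, at 57.4, 50 and 33.6 normalized counts (47 ± 12.1, SD, n = 3), and stood at 95.5, 127 and 79.9 in the LPS10 control (101 ± 23.8). The 2 groups did not overlap. The log2 fold change of 1.1 (SE 0.52) missed the threshold with an edgeR adjusted p of 0.0838, and passed it when the replicate number was kept as a block (1.19, SE 0.35, edgeR adjusted p = 0.00691, a 2.28-fold rise). With the block all 8 tested members thus rose, where 29.5% of all genes did. These 8 include Il12b, Il23a and Il19, which were tested only through their level in the LPS10 control, and the other 5 all rose. Lif (chr11:4207557-4222514), which lies 16.5 kb from Osm and keeps embryonic stem cells undifferentiated, held 10, 3 and 0 read pairs in the LPS10 control and none in unstimulated cells. It reached at most 10 read pairs in any library.

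Of the IL-12 family, the chain shared by IL-12 and IL-23 appeared only after LPS and at low level. Il12b (chr11:44290808-44305505, 8 exons) had no read pairs in unstimulated cells and 24, 20 and 13 read pairs in the LPS10 control (28.6, 13.8 and 12.8 normalized counts, mean 18.4 ± 8.85, SD, n = 3). All 3 treated libraries stood above the untreated ones, by at least 6.87-fold for the group mean and 4.77-fold for the lowest library (edgeR adjusted p = 0.00134). Il12a (chr3:68597977-68605880), the p35 chain that gives IL-12 its identity, held 3, 2 and 3 read pairs there and 18 over all 18 libraries, at most 4 in any. Il23a (chr10:128132008-128134621), the p19 chain of IL-23, was not read in unstimulated cells and held 157, 19 and 49 read pairs in the LPS10 control, or 187, 13.1 and 48.3 normalized counts (82.9 ± 92.1). These 3 libraries differed widely among themselves and all stood above unstimulated cells. The group mean was at least 30.9-fold higher, 11.4-fold without replicate 1, and the lowest library at least 4.9-fold (edgeR adjusted p = 8.81e-05).

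Both chains of IL-27 rose, from very different starting levels. Il27 (chr7:126188181-126194209), the p28 chain, went from 9.56, 16.4 and 4.54 normalized counts in unstimulated cells (10.2 ± 5.95, SD, n = 3) to 569, 311 and 316 in the LPS10 control (399 ± 148). That 38.3-fold rise left no overlap between the groups (log2 fold change 5.26, SE 0.47, edgeR adjusted p = 1.15e-07). Ebi3 (chr17:56259270-56264023), its partner, stood at 518, 525 and 324 before LPS (455 ± 114) and at 1503, 1088 and 1277 after it (1289 ± 208). The rise was 2.83-fold, again with no overlap (log2 fold change 1.5, SE 0.24, edgeR adjusted p = 6.23e-05).

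The IL-10 family pair rose as well, and among members with reads in both groups Il10 had the largest fold change. Il10 (chr1:130947581-130952711) stood at 28.7, 36.9 and 26.4 normalized counts in unstimulated cells (30.6 ± 5.53, SD, n = 3) and at 4409, 5547 and 3620 in the LPS10 control (4525 ± 968). All treated libraries were far above all untreated ones, a 147-fold rise (log2 fold change 7.20, SE 0.51, edgeR adjusted p = 7.68e-09). Il19 (chr1:130860393-130867852), which lies 79.7 kb from Il10 in the same cluster, held 1, 3 and 0 read pairs before LPS and 59, 70 and 44 after it (70.4, 48.4 and 43.4 normalized counts, mean 54.1 ± 14.4). Its mean was at least 20.1-fold higher (edgeR adjusted p = 1.20e-04). The next genes of that cluster, Il20 and Il24, were at 0 read pairs and at most 3 read pairs in any library, so the response at the cluster was read in Il10 and Il19 and was not detectable at this depth in the other two.

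Per kb of exon, the LPS10 control held 3452 ± 739 normalized counts of Il10, 598 ± 96.6 of Ebi3, 357 ± 132 of Il27 and 323 ± 236 of Il6 (SD, n = 3). On the same per-kb scale Il19 stood at 47.1 ± 12.5, Osm at 44.3 ± 10.5 and Il23a at 36.9 ± 41, with Il12b at 6.72 ± 3.23, Il12a at 1.49 ± 0.638 and Lif at 1.01 ± 1.38 last. Il10 was therefore the most abundant of these mRNAs per length after a single exposure, whereas before it Ebi3 was highest, at 211 ± 53, above Il10 at 23.4 ± 4.22 and Osm at 20.7 ± 5.35.

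**Figure D2:**
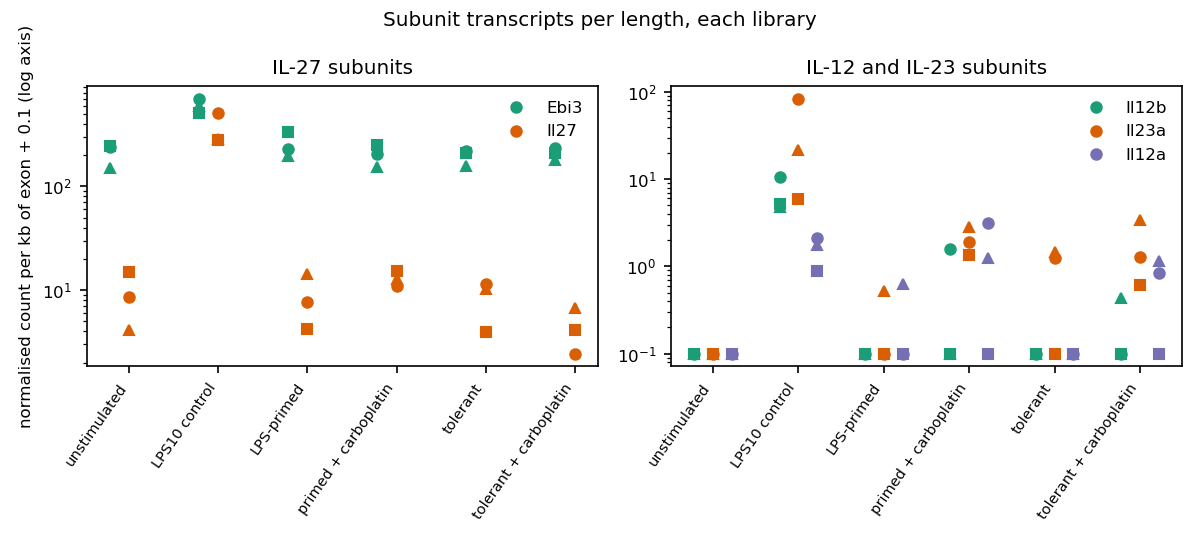
Normalized read counts per kb of exon plus 0.1 (log y axis), so that libraries with no reads sit on the lowest line, for the IL-27 chains Ebi3 and Il27 (left) and for Il12b, Il23a and Il12a (right), with the 6 groups on the x axis and 1 marker shape per replicate. Ebi3 lies above Il27 in every library, by the least in the LPS10 control, and the right-hand genes are highest in the LPS10 control except for Il12a.

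The ratio between the chains that must pair shifted with LPS. Ebi3 exceeded Il27 by 1.37, 1.82 and 2.09 times per kb in the LPS10 control libraries, against 28.1, 16.6 and 36.9 times in unstimulated cells. The 2 sets of libraries did not overlap. Over summed read pairs the ratio was 1.72 (exact 95% interval 1.61 to 1.83) after the single exposure and 22.8 (16.3 to 32.8) before it, and 27.6, 15.5, 24.2 and 44.5 in the primed, primed with carboplatin, tolerant, and tolerant with carboplatin groups. By coding length instead of exon length the ratio was 3.4 in the LPS10 control and 30.7 to 88 elsewhere. Il12b stood below Il23a there, at a ratio of 0.208 (0.152 to 0.279, from 57 and 225 read pairs), with 0.862 in replicate 2 as the highest of the 3 libraries, and above Il12a, at 4.61 (2.19 to 11.2, from 57 and 8 read pairs). Intervals here cover counting error only, since PCR copies of a molecule are not independent.

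After 24 h at the higher dose most of the tested members did not differ detectably from unstimulated cells. No earlier time at this dose was sampled, so whether they had risen before was not measured. In LPS-primed against unstimulated cells 1 member rose and 1 fell, 2 of 8 tested, where 12.1% of all genes rose and 13.1% fell. Il6 held 123, 6.84 and 80.6 normalized counts in primed cells (70.1 ± 58.7, SD, n = 3), against 0 in unstimulated cells. Replicate 2 was far below the other two, yet all 3 primed libraries were above all unstimulated ones (edgeR adjusted p = 0.0234, 1.12e-04 with the replicate block). The primed mean was at least 26.1-fold higher, 16.3-fold without replicate 1, and the lowest library, replicate 2, at least 2.55-fold. Il10 went the other way, to 14.8, 11.4 and 2.81 normalized counts (9.67 ± 6.18). Every primed library lay below every unstimulated one (log2 fold change -1.69, SE 0.59, edgeR adjusted p = 0.0444), a 3.23-fold fall. With the replicate block it was -1.71 (SE 0.48, edgeR adjusted p = 0.00906). Both calls were sensitive to single libraries: without any one of the 3 unstimulated libraries neither passed, without primed replicate 1 Il6 stood at an edgeR adjusted p of 0.0662, and without primed replicate 2 or 3 Il10 stood at 0.0768 and 0.188, whereas with the replicate block both passed in all 6 of these fits. With all libraries in, the blocked fit called 18.9% of all genes higher and 19.8% lower.

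Ebi3 stood at 494, 719 and 419 normalized counts in primed cells (544 ± 156, SD, n = 3), overlapping unstimulated cells, with a log2 fold change of 0.26 (SE 0.24, edgeR adjusted p = 0.486). Osm stood at 115, 49 and 75 (79.8 ± 33.4), which also overlapped, at 0.76 (SE 0.52, edgeR adjusted p = 0.322). Il27 was at 8.47, 4.56 and 15.9 normalized counts. Il12b, Il19 and Lif had no read pairs in primed cells, and Il12a and Il23a 1 read pair each.

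Re-exposure of primed cells was compared with the same low dose in unprimed cells, the comparison that asks how far tolerance reached. How long the LPS10 control was cultured and whether its medium was changed are not stated in the sources used here, so a difference in either cannot be told apart from priming. In LPS-tolerant cells against the LPS10 control, 6 of 8 tested members fell and none rose, where 18.3% of all genes fell and 16.2% rose. Of the 6, Il12b, Il23a and Il19 had entered the test only through their level in the LPS10 control. The median log2 fold change was -3.31 for the 8 members, those 3 included, with floor genes at their bound, and 0 over all genes. With those 3 counted, the genes that fell covered the IL-10 pair and all tested IL-12 family chains. Of the members that reached the minimum count without the LPS10 control, Il10, Il27 and Ebi3 fell, and Il6 and Osm did not pass the threshold.

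Il10 held 58.2, 25.9 and 15.4 normalized counts in tolerant cells (33.2 ± 22.3, SD, n = 3) against 4409, 5547 and 3620 in the LPS10 control. The tolerant mean was 0.734% of the control mean, 0.457% without tolerant replicate 1, with no overlap (log2 fold change -7.13, SE 0.51, edgeR adjusted p = 2.31e-08, -7.75 without that library). Il19 held 3, 4 and 2 read pairs (3.1 ± 0.921 normalized counts), 5.74% of the control mean (log2 fold change -4.07, SE 0.79, edgeR adjusted p = 9.17e-04). Both genes were thus lower in every tolerant library than in any control library.

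Il27 held 12.7, 4.32 and 11.3 normalized counts in tolerant cells (9.43 ± 4.48, SD, n = 3), 2.37% of the control (log2 fold change -5.43, SE 0.48, edgeR adjusted p = 2.80e-07). Its partner Ebi3 stood at 468, 446 and 337 (417 ± 70.5), or 32.3% of the control (log2 fold change -1.63, SE 0.24, edgeR adjusted p = 5.78e-05). Neither overlapped the control. Unstimulated cells held 2.55% of the control for Il27 and 35.3% for Ebi3, so both means were close to their unstimulated level. Il12b was not read in any tolerant library, at least 5.83-fold lower (edgeR adjusted p = 0.00272), and Il23a held 2, 0 and 3 read pairs, at least 26.2-fold lower, or 9.73-fold without replicate 1 of the control (edgeR adjusted p = 8.12e-04).

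Il6 and Osm stood apart from these. Il6 held 438, 12.1 and 64.9 normalized counts in tolerant cells (172 ± 232, SD, n = 3), and the highest of these lay just above the lowest control library, 428, so the groups overlapped. Within each replicate number the tolerant library held 30.3%, 2.83% and 13.6% of the control. The log2 fold change of -2.21 (SE 1.08, 95% interval -4.52 to 0.1) missed the threshold (edgeR adjusted p = 0.132), and with the replicate block, which compares within numbers, Il6 fell by 2.88 on the log2 scale (SE 0.46, edgeR adjusted p = 9.58e-05), which made 7 members lower where 24.7% of all genes were. The 7 include Il12b, Il23a and Il19, tested only through their level in the LPS10 control. Without tolerant replicate 1 Il6 also passed without the block, at -4.37 (edgeR adjusted p = 0.0147), and with the block a library left out gave -3.75, without that same library, to -2.36, without control replicate 2. Osm stood at 261, 70 and 119 (150 ± 99.1), overlapping the control on both sides, at a log2 fold change of 0.56 (SE 0.5, 95% interval -0.49 to 1.61, edgeR adjusted p = 0.415). The tolerant mean of Osm was 149% of the control, 94.1% without tolerant replicate 1, with 273%, 55.2% and 150% within the numbers. With the block and a library left out, 1 of 6 fits put Osm higher in tolerant cells past the threshold (edgeR adjusted p = 0.0378). In 1 of the 6 its direction reversed.

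**Figure D3:**
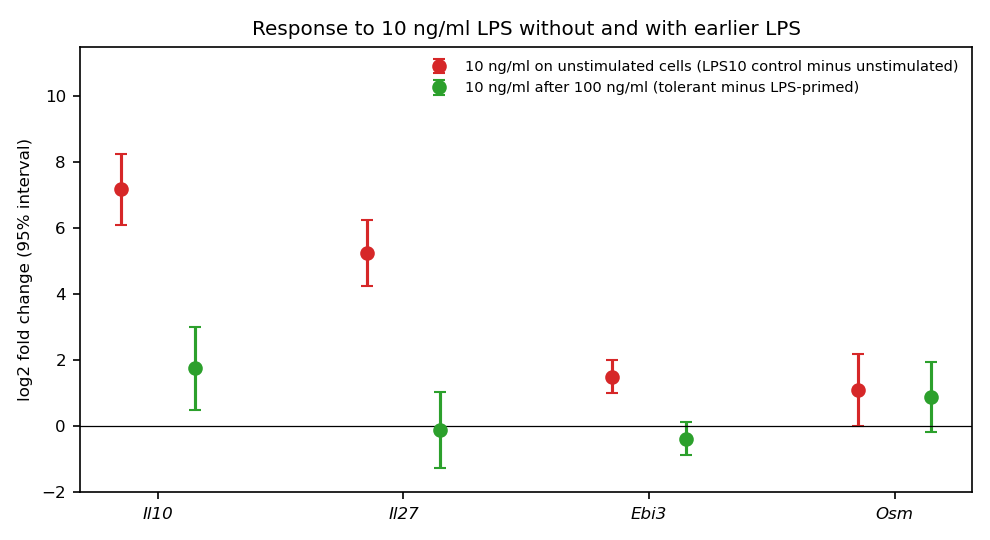
Log2 fold change, with 95% intervals, of members with reads in all the groups compared, for LPS given to unprimed cells (LPS10 control against unstimulated) and to primed cells (tolerant against LPS-primed). Il10 moves by 7.20 in unprimed and 1.76 in primed cells, Il27 and Ebi3 have a positive value in unprimed cells only, and Osm has similar values in both, 1.1 and 0.9.

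The step from primed to tolerant cells covers the re-exposure together with the fresh medium and the 3 h more of culture, which no group separates. None of the 8 tested members passed the threshold (edgeR, 2 at an unadjusted p under 0.05, DESeq2 called 1 and limma-voom 0), where 6.31% of all genes did. With the replicate block 1 rose, Il10, where 9.67% of all genes rose. Il10 went from 14.8, 11.4 and 2.81 normalized counts in primed cells to 58.2, 25.9 and 15.4 in tolerant cells, with every tolerant library above every primed one (log2 fold change 1.76, SE 0.6, edgeR adjusted p = 0.0921, with the block 1.73, SE 0.49, adjusted p = 0.0211). The 2 members whose groups did not overlap were Il10 and Il19, against 26.2% of all genes. Il19 rested on 3, 4 and 2 read pairs in tolerant cells and none in primed cells. Its tolerant mean was 0.99 times the counting floor, so no fold can be given. Il6 stood at a log2 fold change of 1.26 (SE 1.11, edgeR adjusted p = 0.581), which turned to -0.91 without tolerant replicate 1 (-0.09 with the block). Ebi3 stood at -0.38 (SE 0.24, edgeR adjusted p = 0.385) and Osm at 0.9 (SE 0.5, edgeR adjusted p = 0.332). Osm was higher in 3 of 3 numbered pairs.

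The difference between the 2 LPS responses was then tested directly, as the change on re-exposure minus the change on a single exposure. It was below 0 with an edgeR adjusted p under 0.05 for 4 members and above 0 for none, where 13.3% of all genes were below and 10.5% above. Il10 differed by -5.44 on the log2 scale (SE 0.84, edgeR adjusted p = 1.40e-04, -6.06 without tolerant replicate 1), Il27 by -5.37 (SE 0.72, edgeR adjusted p = 3.17e-05) and Ebi3 by -1.88 (SE 0.34, edgeR adjusted p = 5.06e-04). Il6, with unstimulated cells at 0, passed as well (edgeR adjusted p = 0.0104). Osm differed by -0.21 (SE 0.71, edgeR adjusted p = 0.872), so no difference between its responses was detected. Il12b, at 0 in 3 of the 4 groups, gave no usable value. The comparisons with the LPS10 control share its libraries, so their values are not independent of each other.

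**Figure D4:**
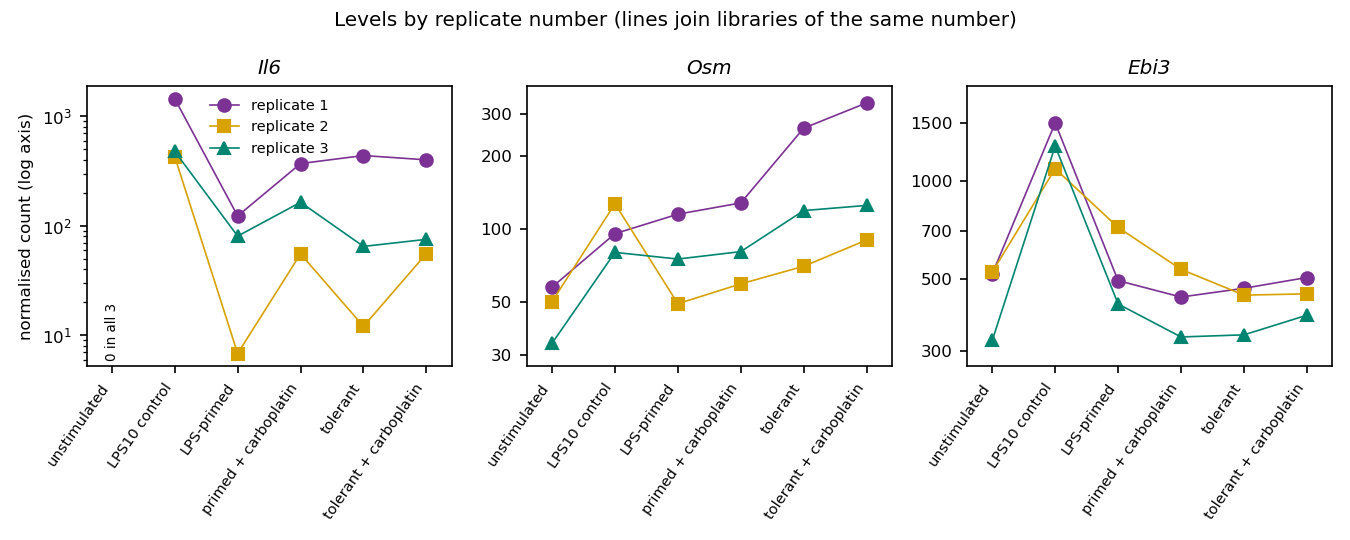
Normalized read counts (log y axis) of Il6, Osm and Ebi3 in the 6 groups, with a line joining the libraries that carry the same replicate number. For Il6 and Osm replicate 1 is the highest and replicate 2 the lowest in every primed and tolerant group, and for Ebi3 replicate 3 is the lowest in those groups.

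The replicates behind these values were not interchangeable for Il6 and Osm. In the 4 primed and tolerant groups Il6 was highest in replicate 1 (123, 370, 438 and 400 normalized counts) and lowest in replicate 2 (6.84, 55.5, 12.1 and 55.8). Osm had the same order, with 115, 128, 261 and 332 in replicate 1 and 49, 59.2, 70 and 89.9 in replicate 2. Il10 had no such order: replicate 2 was the highest with carboplatin in primed cells, at 22.6, and the middle one in plain primed cells, at 11.4. Across the 18 libraries the log2 CPM of Il6 and Osm had a Pearson r of 0.72, that of Osm with Il27 and Ebi3 0.02 and 0.03, and that of Il10 with Il19 0.95. These describe libraries that share treatment, depth and numbering, and are no test.

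Carboplatin was examined next, at an adjusted p under 0.25. The study used this limit for the drug together with a log2 fold change beyond 2, which was not required here. In primed cells none of the 8 tested members passed (edgeR, 0 at an unadjusted p under 0.05, DESeq2 0 and limma-voom 0), where 1.20% of all genes did. Those counts changed with the replicate block: Il6 and Il23a then rose, 2 of 8 members, where 2.71% of all genes rose. The groups did not overlap for 1 member, Il23a, against 12.9% of all genes. The fitted median log2 fold change of the 8 members was 1.01, against 0.01 over all genes. It was 0.29 over the 7 members with a value when genes at the counting floor were entered at their bound. That bound entered Il19, at 0 without the drug, as a fall, because its treated mean was 0.5 times the floor. Il12b, Il23a and Il19 had been tested only through their level in the LPS10 control.

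Il6 held 370, 55.5 and 164 normalized counts in carboplatin-treated primed cells (197 ± 160, SD, n = 3), against 123, 6.84 and 80.6 without the drug (70.1 ± 58.7). The ranges overlapped, yet within each number the treated library was higher, by 3.01, 8.11 and 2.03 times. The log2 fold change was 1.46 (SE 1.11, 95% interval -0.91 to 3.83, edgeR adjusted p = 0.932), and with the replicate block 1.48 (SE 0.5, 95% interval 0.42 to 2.53, edgeR adjusted p = 0.176). Leaving out any one of the 6 libraries moved the blocked adjusted p between 0.0918 and 0.47, and only the fit without LPS-primed replicate 3 kept the call. Il23a held 3, 3 and 6 read pairs with carboplatin and 0, 0 and 1 without (edgeR adjusted p = 0.755, with the block 0.223). By the group mean Il23a was at least 1.37-fold higher, or 1.1-fold without carboplatin-treated replicate 3. The lowest treated library of Il23a stood at 0.899 times the counting floor, so no fold can be given for it. The blocked adjusted p of Il23a was 0.243 to 0.528 over the same omissions and stayed under 0.25 only without carboplatin-treated replicate 1.

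The remaining members gave wide intervals around 0 in primed cells. Il10 stood at 5.4, 22.6 and 5.03 normalized counts with the drug (11 ± 10, SD, n = 3), a log2 fold change of 0.29 (95% interval -1.17 to 1.74, edgeR adjusted p = 0.989). Il27 was at 12.2, 16.9 and 14.1 (14.4 ± 2.4), at 0.55 (-0.54 to 1.64, edgeR adjusted p = 0.953). Ebi3 was at 440, 535 and 332 (436 ± 101), lower in 3 of 3 numbered pairs, at -0.32 (-0.82 to 0.18, edgeR adjusted p = 0.924). Osm was at 128, 59.2 and 80.5 (89.3 ± 35.4), higher in 3 of 3 pairs, at 0.15 (-0.92 to 1.22, edgeR adjusted p = 0.992). Il12b held 3, 0 and 0 read pairs, Il12a 4, 0 and 2, Il19 0, 5 and 0, and Lif 5, 0 and 0.

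**Figure D5:**
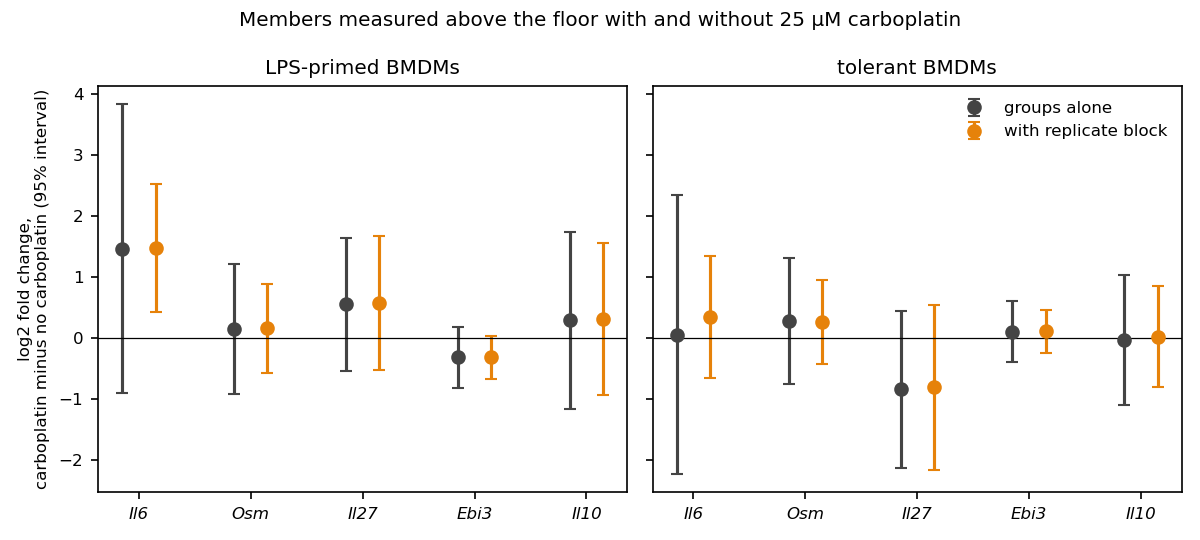
Log2 fold change with carboplatin, with 95% intervals, in LPS-primed and in LPS-tolerant cells for Il6, Il10, Il27, Ebi3 and Osm, from the fit by group and from the fit with the replicate block. Of these intervals only that of Il6 in primed cells with the block, 0.42 to 2.53, lies wholly on one side of 0.

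In tolerant cells none of the 8 tested members passed with or without the block (edgeR, 0 at an unadjusted p under 0.05, DESeq2 0 and limma-voom 0), where 1.65% of all genes passed and 6.93% with the block, and no member's groups were apart, against 11.4% of all genes. Il6 held 400, 55.8 and 75.3 normalized counts with carboplatin (177 ± 193, SD, n = 3) and 438, 12.1 and 64.9 without (172 ± 232). The treated library was 0.913, 4.61 and 1.16 times the untreated one within the numbers. The log2 fold change was 0.05 (SE 1.07, 95% interval -2.23 to 2.34, edgeR adjusted p = 1), and 0.34 with the replicate block (SE 0.47, 95% interval -0.66 to 1.34, edgeR adjusted p = 0.846). These means were 21.9% of the LPS10 control without the drug and 22.6% with it, and 8.5% and 14.5% without the libraries numbered 1. Within the numbers the carboplatin-treated library held 27.7%, 13% and 15.8% of the control.

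Il10 stood at 51.1, 22.8 and 23 normalized counts in carboplatin-treated tolerant cells (32.3 ± 16.3, SD, n = 3), a log2 fold change of -0.03 (95% interval -1.1 to 1.04), and remained at 0.714% of the LPS10 control. Il27 stood at 2.62, 4.55 and 7.35 (4.84 ± 2.38), at -0.84 (-2.13 to 0.45, edgeR adjusted p = 0.975). Ebi3 stood at 505, 450 and 387 (447 ± 59), at 0.1 (-0.4 to 0.6). Osm stood at 332, 89.9 and 125 (182 ± 131), at 0.28 (-0.75 to 1.32). The last 2 were higher with the drug in 3 of 3 numbered pairs, each by less than the spread between replicates. Il23a held 2, 1 and 8 read pairs, Il12a 1, 0 and 2, Il19 1, 0 and 4, Lif 0, 1 and 5, and Il12b 0, 0 and 1.

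Averaged over both settings, carboplatin moved no member past the threshold (edgeR, 0 at an unadjusted p under 0.05, DESeq2 1, Il23a, and limma-voom 0), where 5.95% of all genes passed. With the block 2 rose, where 8.95% of all genes rose: Il6 (log2 fold change 0.91, edgeR adjusted p = 0.143) and Il23a (edgeR adjusted p = 0.119). The effect of the drug was also compared between tolerant and primed cells. No member and none of all 11305 genes passed that test (edgeR, 1 member, Il19, at an unadjusted p under 0.05, DESeq2 0 and limma-voom 0). The interval of the difference was -4.69 to 1.87 for Il6 and -0.29 to 1.13 for Ebi3, so a difference for Il6 could not be told apart from none over a wide range.

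Among the other ligands of these families, Clcf1, a further gp130 cytokine, was the one with a clear response, and 2 of 9 had enough reads to test. It rose from 2.09 ± 1.94 to 112 ± 48.5 normalized counts (SD, n = 3) on a single exposure (log2 fold change 5.66, SE 0.94, edgeR adjusted p = 9.16e-05) and was lower in tolerant cells, at 24 ± 24.3 (-2.26, SE 0.72, edgeR adjusted p = 0.0219). Il11, Il20, Il22, Il24, Il31 and Ctf1 reached at most 4 read pairs in any library.

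Receptor chains were called in both directions. Of 17 chains 11 were tested, and after a single exposure 2 rose and 2 fell, where 24.3% of all genes rose and 26.9% fell, with a median log2 fold change of -0.1 against -0.09 over all genes. Osmr, which passed the minimum count only through the LPS10 control and is the specific chain of the oncostatin M receptor, went from 0.546 ± 0.946 to 46.4 ± 7.43 normalized counts (log2 fold change 6.02, SE 0.94, edgeR adjusted p = 4.82e-05), and Il20rb, part of the receptor for IL-19, rose by 1.69 (SE 0.51, edgeR adjusted p = 0.0112). Il6ra, the binding chain for IL-6, fell from 328 ± 133 to 86.5 ± 19.1 (-1.91, SE 0.33, edgeR adjusted p = 1.34e-04), and Lifr fell by 1.25 on the log2 scale (SE 0.49, edgeR adjusted p = 0.0421). The chains of the IL-10 receptor gave values of -0.31 for Il10ra and -0.1 for Il10rb, neither past the threshold.

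In primed cells 1 chain rose and 3 fell, where 12.1% of all genes rose and 13.1% fell, and with the replicate block 1 rose and 7 fell, where 18.9% and 19.8% did. The shared chain Il6st went from 798 ± 372 to 313 ± 86.7 normalized counts (SD, n = 3; log2 fold change -1.35, SE 0.38, edgeR adjusted p = 0.015), Lifr fell by 2.62 (SE 0.52, edgeR adjusted p = 0.00121) and Il12rb2, the signalling chain for IL-12, from 89.3 ± 14.6 to 4.47 ± 3.87 (-4.28, SE 0.62, edgeR adjusted p = 5.71e-05). The chain that rose was Il23r, from 0.622 ± 0.539 to 132 ± 37.4 (edgeR adjusted p = 1.46e-08), while its ligand chain Il23a held 1 read pair in the same 3 libraries. Tolerant cells against the LPS10 control had 1 chain higher, Il23r, and 5 lower, where 16.2% and 18.3% of all genes were. These were Il12rb2 at 2.34 ± 1.22 against 88 ± 11.1 (-5.14, SE 0.67, edgeR adjusted p = 1.73e-05), Lifr (-1.83), Il20rb (-1.56), Osmr at 2.58 ± 1.53 (-4.17, SE 0.79, edgeR adjusted p = 5.89e-04) and Il6st at 311 ± 103 against 880 ± 245 (-1.5, SE 0.39, edgeR adjusted p = 0.0059). Of these 5, Osmr had entered the test only through its level in the LPS10 control, so being tested already required it to be high there. From primed to tolerant cells 1 chain rose, Il10rb (log2 fold change 0.48, SE 0.12, edgeR adjusted p = 0.0287), where 6.31% of all genes were called in either direction. Averaged over both settings, carboplatin lowered 2 chains at its threshold, where 5.95% of all genes were called, Il23r by 0.8 and Lifr by 1.4 on the log2 scale (edgeR adjusted p = 0.0626 and 0.12).

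All 10 genes of the JAK-STAT list were tested. After a single exposure 6 rose and 1 fell, where 24.3% and 26.9% of all genes did, with a median log2 fold change of 0.96. Socs3, the feedback inhibitor of IL-6 signalling, went from 34.9 ± 3.13 to 11936 ± 1514 normalized counts (SD, n = 3; log2 fold change 8.42, SE 0.54, edgeR adjusted p = 2.44e-09), and Socs1, a further inhibitor, from 12 ± 7.48 to 559 ± 245 (5.52, SE 0.85, edgeR adjusted p = 4.67e-05). Pias3, a STAT3 inhibitor, fell by 1.82 on the log2 scale (SE 0.17, edgeR adjusted p = 2.41e-07). In primed cells 4 rose and 1 fell, where 12.1% and 13.1% of all genes did. Tolerant cells had 1 higher and 6 lower than the LPS10 control, where 16.2% and 18.3% of all genes were, with Socs3 at 1439 ± 1062 (-3.05, SE 0.41, edgeR adjusted p = 2.33e-05). No gene of the list passed for carboplatin in primed or in tolerant cells (edgeR; 0 and 0 at an unadjusted p under 0.05), nor with the block.

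Most of the genes that IL-10 raises through STAT3 rose with LPS. Of 9, 8 rose after a single exposure, where 24.3% of all genes did, with a median log2 fold change of 3.73. In primed cells 7 were up, where 12.1% of all genes were. Tolerant cells had 8 lower and 1 higher than the LPS10 control, where 18.3% and 16.2% of all genes were. Il1rn, the IL-1 receptor antagonist, went from 84.7 ± 50.2 to 13488 ± 2837 normalized counts after a single exposure (SD, n = 3) and stood at 1866 ± 908 in primed and 4242 ± 2298 in tolerant cells. Hmox1, haem oxygenase, was the exception in tolerance: it stood at 3449 ± 1425 in unstimulated cells, 3737 ± 1143 in the LPS10 control, 30978 ± 3720 in primed and 29529 ± 2041 in tolerant cells (tolerant against control 2.98, SE 0.26, edgeR adjusted p = 2.15e-07). In primed cells 7 of these genes were thus up while Il10 itself was down. Several of them, Socs3, Bcl3, Nfil3 and Zfp36, stand in 2 lists.

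Of 18 regulators of these cytokines, 13 rose and 3 fell after a single exposure, where 24.3% of all genes rose and 26.9% fell (median log2 fold change 2.17 against -0.09). Nfkbiz, the IκBζ cofactor needed for Il6, rose by 5.15 on the log2 scale (SE 0.37, edgeR adjusted p = 7.79e-09) and Zc3h12a, the RNase that degrades Il6 and Il12b mRNA, by 4.32 (SE 0.31, edgeR adjusted p = 1.08e-08). Maf, an activator of Il10, went from 1217 ± 581 to 215 ± 110 normalized counts (SD, n = 3; -2.49, SE 0.46, edgeR adjusted p = 2.57e-04) and Irf8, which acts on Il12b, from 1085 ± 168 to 213 ± 22.4 (-2.35, SE 0.16, edgeR adjusted p = 3.88e-09). In primed cells 7 rose and 1 fell, where 12.1% and 13.1% of all genes did. Tolerant cells had 4 higher and 13 lower than the LPS10 control, where 16.2% and 18.3% of all genes were, with Bcl3, a nuclear IκB protein, at 355 ± 168 against 3184 ± 342 and Zfp36, which destabilises cytokine mRNA, at 630 ± 117 against 8298 ± 1745.

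From primed to tolerant cells 2 regulators rose, Nfkb1 (log2 fold change 0.73, SE 0.13, edgeR adjusted p = 0.00288) and Irf5 (0.65, SE 0.14, edgeR adjusted p = 0.0108), and 4 fell, including Nfil3 (-2.26, SE 0.32, edgeR adjusted p = 4.13e-04) and Bcl3 (-1.35, SE 0.28, edgeR adjusted p = 0.0082). In that comparison 6.31% of all genes were called in either direction. With the block 4 rose and 4 fell, where 9.67% of all genes rose and the share that fell is not reported here. Carboplatin lowered 1 regulator in tolerant cells, Irf8, from 1067 ± 92.9 to 739 ± 100 normalized counts (SD, n = 3; -0.53, SE 0.15, edgeR adjusted p = 0.18), and it was the 1 called on average as well (-0.44, edgeR adjusted p = 0.0396), where 1.65% and 5.95% of all genes were called. On average with the block 3 rose, Rela, Nfkbiz and Rel (edgeR adjusted p = 0.049, 0.0935 and 0.17), and 2 fell, Irf8 and Maf (0.00623 and 0.13), where 8.95% of all genes rose and 10.9% fell. In primed cells 0 passed (edgeR, 1 at an unadjusted p under 0.05), where 1.20% of all genes did. With the block 2 rose there, Nfkbiz and Rela, where 2.71% of all genes rose. In the same fit 1 fell, Irf8, and the share of all genes that fell is not reported here.

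The genes whose log2 CPM followed a member most closely over the 18 libraries were searched among 11297 genes for Il6, Il10 and Il12b. For Il6 these were Cd14, the LPS co-receptor (Pearson r 0.965), Il1b (0.958) and Alas1 (0.957). Cd14 stood at 2969 ± 951 normalized counts in unstimulated, 17170 ± 10095 in primed, 22645 ± 11985 in tolerant and 37035 ± 7553 in LPS10 control cells (SD, n = 3), so it shared the intermediate level of Il6 after priming. For Il10 they were Mapkapk3 (0.979), Frmd6 (0.967) and Ptbp1 (0.965), and Mapkapk3 stood at 1760 ± 161 in the LPS10 control and between 242 and 374 in the group means elsewhere. For Il12b they were Col5a3 (0.966), Stat5a (0.955) and Sele (0.953), with Stat5a at 4517 ± 373 in the LPS10 control and 240 to 298 elsewhere and Sele read only in the LPS10 control (159 ± 129). For Il10 and Il12b these r values mostly carry the difference between the LPS10 control and the other groups, and all are given as a description.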

How the data were processed

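Poly(A) RNA of the 18 BMDM cultures was sequenced on an Illumina HiSeq as read pairs. Per the labels and the study's methods, the authors aligned reads with HISAT2 to GRCm39 and counted read pairs per gene with HTSeq-count, and the deposited files hold these raw counts, not normalized, 1 file per library. Versions, annotation and the strand setting of the counting are not given in the sources used here. The summary rows that name no gene (41.5% to 46.9% of pairs, of which 26.5% to 33.1% without a feature) were left out.

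All 18 libraries entered 1 model without a block, in edgeR 4.0.16 (R 4.3.3): TMM scaling, filterByExpr (minimum count 10, minimum total 15), quasi-likelihood F test and Benjamini-Hochberg adjustment over 11305 genes. Calls used an adjusted p under 0.05 for LPS and under 0.25 for carboplatin, the adjusted p limits of the study without its fold limit (a log2 fold change beyond 2), which was an alternative. Each SE was derived as |log2 fold change| divided by √F. Normalized counts express each count per effective library size (library size times TMM factor), brought back to the average effective size of the 18 libraries. The floor of 3 read pairs is 0.204 to 0.437 CPM. Floors and the exact intervals of the chain ratios cover counting error only. Intervals of log2 fold changes rest on the SE given above, which includes the spread between replicates. Alternatives were RLE and library-size scaling, other filters, DESeq2 1.42.0, limma-voom (limma 3.58.1), fits of only the groups compared, stricter limits, each library left out and the replicate number as a block. Samples with the same number deviated together from their group means in 44 of 45 pairs over 0.1 (r 0.06 to 0.57, mean 0.35). The pair below the limit, LPS-primed and LPS10 control replicate 3, stands together only in the comparison of the 2 LPS responses. The blocked fit takes in all 18 libraries at once, so both libraries of that pair also bear on its other comparisons. Pairing was therefore read from the data, since the labels give the number and no animal. The fits were also run on simulated data, and the outcome is not reported here.

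The 10 members and all gene lists were chosen with earlier results of these data known. From each list the 2 called genes with the largest change in each direction could be named, and genes outside that rule (the IL-10 receptor chains, Il6st, Il20rb, levels of Il1rn and genes of counts up to 5) were named after their values were seen. Some results of the gene lists are not reported here. Exon lengths and positions are from GENCODE vM39 (GRCm39).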

Additional observations from a re-analysis of the deposited data

Results flagged for a closer look

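The response to LPS differed between primed and unprimed cells for 4 members, by the test of the difference itself (edgeR). The adjusted p was 0.0104 for Il6, 1.40e-04 for Il10, 3.17e-05 for Il27 and 5.06e-04 for Ebi3, each with the smaller response in primed cells. The LPS-primed group had been sampled after 24 h of LPS, and the unprimed baseline had no LPS, so the size of the difference also depends on where each baseline stood: Il6 was at 70.1 ± 58.7 normalized counts in primed cells and at 0 in unstimulated cells (SD, n = 3), and Il10 at 9.67 ± 6.18 and 30.6 ± 5.53. With 3 libraries a group, single libraries could not be screened as outliers.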

How the results depend on the processing

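The count of members called after a single LPS exposure, in tolerant cells against the LPS10 control, in the difference of the 2 responses and for carboplatin in tolerant cells stayed within 1.5 times its value under every alternative run. The counts that moved were small. In primed against unstimulated cells the count of 2 became 0 with limma-voom (1 at an unadjusted p under 0.05), 0 with only the groups compared (4 members tested), 0 at an adjusted p under 0.01, 1 with a log2 fold change over 2, and 0 to 1 with a library left out. In tolerant against primed cells the count of 0 became 1 with DESeq2, 1 with the replicate block, 2 with limma-voom and the block, 2 with DESeq2 and the block, and 0 to 1 with the block and a library left out. For carboplatin in primed cells the count of 0 became 2 with the replicate block, 1 with limma-voom and the block, 2 with DESeq2 and the block and 0 to 1 with the block and a library left out. For its average over both settings it became 1 with DESeq2, 2 with the block, 2 and 2 with the block in limma-voom and DESeq2, and 0 to 2 with the block and a library left out. The block changed no call of a member beyond those given beside the results. These fits with limma-voom, DESeq2 or omissions together with the block were chosen after seeing the data. The cause of these shifts was not tested.

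No called value of a member reversed its direction under the alternatives run. Osm in the difference of the 2 responses was 0.02 by library size. Il10 with carboplatin in tolerant cells was 0.03 by library size, 0.07 with limma-voom, 0.02 with the block, 0.04 with limma-voom and the block and 0.03 with DESeq2 and the block. With a library left out, without and with the block, Osm ranged from -0.87 to 0.15 and -0.73 to 0.19 in the difference of the 2 responses, from -0.19 to 0.51 (0.04 to 0.31) for carboplatin in primed cells, from -0.47 to 0.94 and -0.09 to 0.54 for carboplatin in tolerant cells, and from -0.1 to 0.91 and -0.04 to 0.87 in tolerant against LPS10 control cells. Il10 ranged from -0.85 to 0.76 and -0.74 to 0.7 for carboplatin in primed cells and from -0.49 to 0.59 and -0.33 to 0.57 in tolerant cells (0.33 with the block and without carboplatin-treated tolerant replicate 2). Il6 ranged from -0.91 to 1.91 and -0.09 to 1.48 in tolerant against primed cells, from -1.35 to 2.22 and -0.02 to 1.27 for carboplatin in tolerant cells, and from -2.81 to 0.75 (-1.84 to -0.2) for the difference of the carboplatin effects, and Ebi3 from -0.03 to 0.19 (0.06 to 0.19) for carboplatin in tolerant cells. Of 1072 values of single members under alternatives, 965 kept direction and side of the threshold, 58 newly passed, 17 no longer passed and 32 reversed. Il12a and Lif were tested only without the filter on low counts, and for chains at the floor only bounds are given.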
